A study of Mus musculus with 6 samples.

Results

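The genes described here are 10 immediate early genes, Fos, Fosb, Fosl1, Fosl2, Jun, Junb, Jund, Atf3, Egr1 and Ier3. They were taken by gene name from a table of 55536 mouse genes, and all 10 were present. RNA was sequenced from 6 livers of male C57BL/6 mice, 3 Sirt5-/- and 3 Sirt5+/+. SIRT5 is a mitochondrial deacylase that removes succinyl, malonyl and glutaryl groups from proteins. Mice of both genotypes were 4 weeks old when they were injected hydrodynamically, a method that delivers naked plasmid DNA to liver cells by forcing fluid quickly into the circulation. They received 50 µg of a plasmid for myc-tagged YAP5SA, an active form of the co-activator YAP driven by a CMV promoter, and 10 µg of a plasmid for the PBase transposase, which inserts the construct into the genome. Livers were collected 20 days later. Both genotypes therefore carried the YAP5SA construct, and each genotype difference is a difference between YAP5SA livers. Livers injected with the RFP plasmid that the treatment notes also mention were not analysed here. The labels do not tie each liver to its own mouse. A p-value here therefore weighs the genotype difference against a spread among these 6 samples that may be in part technical.

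AP-1 is a dimer of basic leucine zipper proteins. A FOS protein (FOS, FOSB, FOSL1, FOSL2) needs a JUN partner to bind DNA, whereas JUN, JUNB and JUND can also pair with each other or with ATF proteins. Growth factors, stress and cytokines switch these genes on within minutes through MAP kinases and the factors SRF, CREB and JUN itself, and feedback inhibitors and rapid mRNA decay switch them off again. In regenerating liver FOS and JUN are among the earliest genes induced, and AP-1 often sits beside the YAP partner TEAD at enhancers. EGR1, a zinc finger factor, and IER3, a small regulator of cell survival, belong to the same early response without being part of AP-1.

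The Sirt5-/- libraries held 20025180 to 24330797 estimated read counts and the Sirt5+/+ libraries 19307808 to 23410091. The share of counts from mitochondrially encoded genes was 40.8, 21.5 and 17.5% for Sirt5-/- livers 1 to 3, and 7.2, 6.58 and 46.4% for Sirt5+/+ livers 1 to 3, so Sirt5-/- liver 1 and Sirt5+/+ liver 3 stood apart. Levels are given as CPM, counts scaled to one library total with TMM factors, which allow for a few abundant genes taking up much of a library. Sirt5 itself had 14, 45 and 18 counts in Sirt5-/- livers, against 352, 441 and 96 counts in Sirt5+/+ livers, so each library matched its genotype label. Hepatocyte markers such as Alb were abundant in all 6 livers.

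The FOS genes Fos, Fosl1 and Fosl2, the JUN gene Junb, and Atf3, Egr1 and Ier3 were higher in Sirt5-/- livers, by between 2.79-fold (Junb) and 11.2-fold (Fos) among those with enough counts in both genotypes. Jun, Jund and Fosb did not pass the test. In all, 7 of 10 members were higher and 0 were lower at an adjusted p under 0.05 (edgeR quasi-likelihood test over 14799 genes). No member had a log2 fold change below 0 in edgeR, DESeq2 or limma-voom. Of all genes tested, 17.4% were called higher and 17.1% lower, and with library totals in place of TMM factors 16.5% higher and 2.20% lower. The genotypes did not overlap in 9 of 10 members, all higher in Sirt5-/-, against 25.8% of all genes tested. At least 4-fold higher levels were called in 3 members (Fos, Fosl1 and Ier3), against 8.79% of all genes. The median log2 fold change (log2 FC, Sirt5-/- over Sirt5+/+) of the members was 1.94, against -0.08 over all tested genes. All members passed the filter on low counts, but Fosl1 passed it only through Sirt5-/- livers, so it could hardly have been tested without being higher there. Of the other 9 members, 6 were called. Fosb, which was not called, was over the filter in 3 Sirt5-/- but only 2 Sirt5+/+ livers. It too needed Sirt5-/- livers to be tested, and both Fosb and Fosl1 are among the 9 members that did not overlap.

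**Figure D1:**
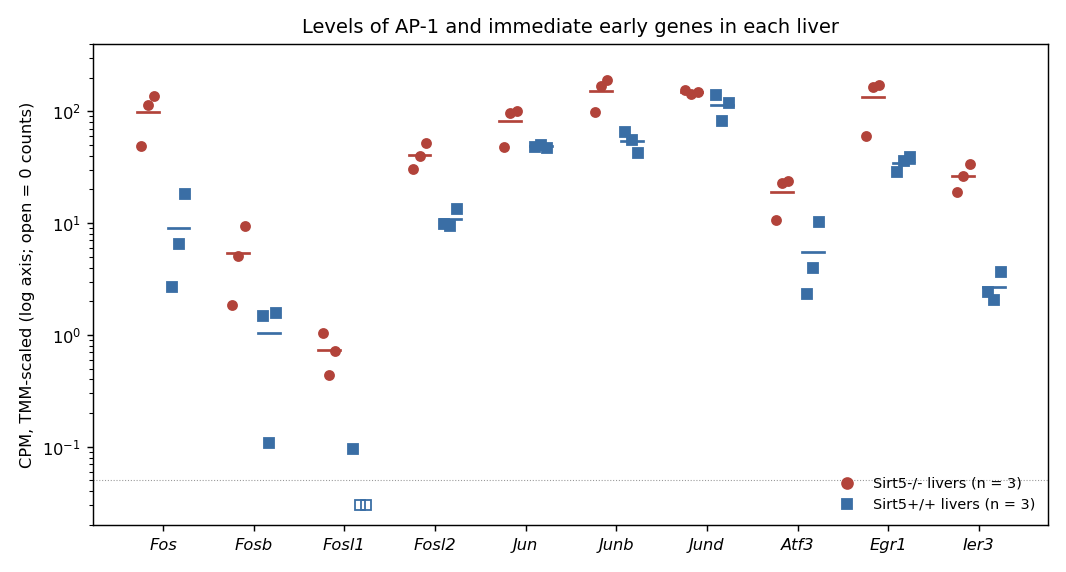
Each point is 1 liver, as TMM-scaled CPM on a log axis, with Sirt5-/- livers to the left of Sirt5+/+ livers for each gene. Bars are means of 3 livers, drawn where no liver is at 0 counts, and open symbols under the dotted line are livers with 0 counts. Fos ranged from 49.0 to 136 CPM in Sirt5-/- livers and from 2.66 to 18.1 CPM in Sirt5+/+ livers, while the points of Jun overlap.

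The stretches before the start sites of Fos, Junb and Jun are shown because they hold letters read by CREB, ATF and JUN proteins, and because Fos and Junb passed the test while Jun did not. Each runs 5′ to 3′ over the 250 bases before the RefSeq start (GRCm38.p6), with TGACG, the core of a CRE (the cAMP response element), or TGACATCA, the JUN/ATF site, in capitals.
Fos (chr12:85473640-85473889, plus strand): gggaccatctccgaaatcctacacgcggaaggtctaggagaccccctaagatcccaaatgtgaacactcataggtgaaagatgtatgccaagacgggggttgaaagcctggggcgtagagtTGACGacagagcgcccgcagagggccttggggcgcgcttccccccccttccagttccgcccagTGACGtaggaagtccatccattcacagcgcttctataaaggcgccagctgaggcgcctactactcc
Junb (chr8:84978749-84978998, minus strand): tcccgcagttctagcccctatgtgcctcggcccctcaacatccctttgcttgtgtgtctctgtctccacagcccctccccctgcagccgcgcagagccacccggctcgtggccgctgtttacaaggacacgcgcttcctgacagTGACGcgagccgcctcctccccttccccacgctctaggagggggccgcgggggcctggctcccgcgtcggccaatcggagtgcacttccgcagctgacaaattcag
Jun (chr4:95052223-95052472, minus strand): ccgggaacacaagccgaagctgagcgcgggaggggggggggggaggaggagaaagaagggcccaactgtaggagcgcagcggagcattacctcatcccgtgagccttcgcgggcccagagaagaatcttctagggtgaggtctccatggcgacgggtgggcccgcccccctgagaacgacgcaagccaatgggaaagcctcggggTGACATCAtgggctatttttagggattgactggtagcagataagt

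RefSeq windows were searched on both strands for 8 of the 10 members (Fos, Fosb, Fosl2, Jun, Junb, Jund, Atf3 and Ier3). Member windows on chromosome 18, where Egr1 lies, were left out by choice, and no window was matched to Fosl1. TGACG occurred in 4 of the 8 windows, those of Fos, Fosb, Junb and Atf3, and in 17.8% of 32851 mouse windows of the same length. In Fos it lay 129 to 125 and 66 to 62 bases before the start, with TATAAA 33 to 28 bases before it. The TGACG of Junb lay 106 to 102 bases before its start and a CCAAT box 36 to 32 bases before it. The TGACATCA of Jun lay 45 to 38 bases before its start, with a CCAAT box 65 to 61 bases before it. That site was in 1 member window and in 2.93% of all windows. The full AP-1 site TGACTCA (4.46% of all windows), the full CRE TGACGTCA (1.55%), the TEAD site CATTCC (12.6%) and the CArG box bound by SRF (1.47%) were in 0 of the 8 member windows. Sites outside these 250 bases were not searched for, so a gene without a match may have them elsewhere. The Jund window ends at 70697738, well before the Jund gene start of 70698949 given below. The windows of Fosl2 (32136222 to 32136471) and Atf3 (191183334 to 191183583) lie inside the gene spans given below. Those of Fosb and Ier3 reach slightly into theirs. Of the 4 genes with TGACG, Fos, Junb and Atf3 passed the genotype test and Fosb did not. Without TGACG in their windows, Fosl2 and Ier3 passed, and Jun and Jund did not. A match is a run of letters and not a measured site.

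Fos (ENSMUSG00000021250, chromosome 12, 85473890 to 85477273, plus strand, GRCm38) encodes c-FOS, the classic immediate early partner of JUN. It had 49.0, 113 and 136 CPM in Sirt5-/- livers, against 2.66, 6.50 and 18.1 CPM in Sirt5+/+ livers. The lowest Sirt5-/- liver was still above the highest Sirt5+/+ liver, although levels differed several-fold within each genotype. The means were 99.3 ± 44.9 and 9.08 ± 8.03 CPM (SD, n = 3 each), a log2 FC of 3.49 ± 0.71 (SE; edgeR adjusted p = 0.00702).

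Fosl2 (ENSMUSG00000029135, chromosome 5, 32135801 to 32157842, plus strand) encodes FRA-2, a FOS protein that persists longer after stimulation than FOS. Its levels were 30.3, 40.1 and 52.3 CPM in Sirt5-/- livers and 9.77, 9.46 and 13.4 CPM in Sirt5+/+ livers. Every Sirt5-/- liver was above every Sirt5+/+ liver. Fosl2 averaged 40.9 ± 11 CPM in Sirt5-/- and 10.9 ± 2.17 CPM in Sirt5+/+ livers (SD, n = 3 each), 3.79-fold higher (log2 FC 1.92 ± 0.28 SE; edgeR adjusted p = 0.00255).

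Fosl1 (ENSMUSG00000024912, chromosome 19, 5447547 to 5455946, plus strand) encodes FRA-1, which is often raised in invasive tumour cells. It was rare in every liver, with 18, 16 and 26 counts in Sirt5-/- livers and 2, 0 and 0 counts in Sirt5+/+ livers. Scaled for library size, the summed counts, 60 against 2, gave a ratio of 19 (95% exact interval 5.03 to 160, counting error only). The fitted log2 FC was 4.16 ± 1.01 (SE; edgeR adjusted p = 0.0147), a size that depends on the prior count. The Sirt5-/- livers had 1.05, 0.441 and 0.718 CPM, and 3 counts would have been 0.107 and 0.393 CPM in the Sirt5+/+ livers with 0 counts. The call was lost without Sirt5-/- liver 1 (adjusted p = 0.0522) or 3 (0.0601) or without Sirt5+/+ liver 2 (0.0570), and the log2 FC was 7.21 without Sirt5+/+ liver 1. Exons of Fosl1 share 1163 bases with the antisense gene Ccdc85b, which had 156, 424 and 493 counts in Sirt5-/- livers and 376, 340 and 77 in Sirt5+/+ livers. Whether counting used the strand is not given in the sources used here, so reads in that stretch cannot be told apart.

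Fosb (ENSMUSG00000003545, chromosome 7, 19302696 to 19310051, minus strand) encodes FOSB and, by splicing, the stable ΔFOSB. It had 1.87, 5.04 and 9.39 CPM in Sirt5-/- livers and 1.47, 0.107 and 1.57 CPM in Sirt5+/+ livers. The genotypes touched closely, since Sirt5-/- liver 1 was only just above the highest Sirt5+/+ liver. The log2 FC was 2.48 ± 0.89 (SE; edgeR adjusted p = 0.0611) and missed the threshold. DESeq2 gave an adjusted p of 0.0116 and the authors' deposited table gives 0.0138, and without both livers richest in mitochondrial reads edgeR gave 0.00900.

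Junb (ENSMUSG00000052837, chromosome 8, 84974484 to 84978718, minus strand) encodes JUNB, which dampens JUN activity in some settings and is itself a rapid early response gene. Its levels were 98.2, 168 and 192 CPM in Sirt5-/- livers and 65.9, 55.9 and 42.1 CPM in Sirt5+/+ livers. The groups did not overlap. The means of 153 ± 48.7 and 54.6 ± 12.0 CPM (SD, n = 3 each) were 2.79-fold apart (log2 FC 1.48 ± 0.34 SE; edgeR adjusted p = 0.0109). The call was lost without Sirt5-/- liver 2 (adjusted p = 0.0522) or 3 (0.0539). Junb shares 173 exon bases with the antisense gene Prdx2, which had 1071, 2833 and 2719 counts in Sirt5-/- livers and 3093, 2400 and 660 counts in Sirt5+/+ livers.

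Jun (ENSMUSG00000052684, chromosome 4, 95049034 to 95052222, minus strand), a gene of 1 exon, encodes c-JUN, which is needed for normal liver regeneration in mice. It had 47.6, 96.3 and 101 CPM in Sirt5-/- livers and 47.8, 50.3 and 47.4 CPM in Sirt5+/+ livers. Sirt5-/- liver 1 sat at the level of the Sirt5+/+ livers, and the other two Sirt5-/- livers were clearly above them. The log2 FC of 0.75 ± 0.32 (SE; edgeR adjusted p = 0.102) did not pass. Without Sirt5-/- liver 1 Jun passed at 1.01 (adjusted p = 0.0353), and without both livers richest in mitochondrial reads at 1.06 (0.00658).

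Jund (ENSMUSG00000071076, chromosome 8, 70698949 to 70700616, plus strand), also of 1 exon, encodes JUND, the JUN protein present in resting cells. It had 155, 143 and 149 CPM in Sirt5-/- livers and 141, 82.0 and 119 CPM in Sirt5+/+ livers. The ranges lay side by side without overlap, with a difference of 0.39 ± 0.28 on the log2 scale (SE; edgeR adjusted p = 0.326). It did not pass under any of the 18 other settings tried, where its log2 FC ran from 0.18 to 1.07. Exons of Jun and Jund also overlap the antisense genes Junos and Gm11175, which had at most 6 and 4 counts in any liver.

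Atf3 (ENSMUSG00000026628, chromosome 1, 191170296 to 191218039, minus strand) encodes a stress-induced ATF protein that pairs with JUN proteins. Its levels were 10.6, 22.7 and 23.8 CPM in Sirt5-/- livers and 2.32, 3.96 and 10.2 CPM in Sirt5+/+ livers. Sirt5-/- liver 1 and Sirt5+/+ liver 3 lay almost level. The log2 FC was 1.85 ± 0.55 (SE; edgeR adjusted p = 0.0314). The call was lost without Sirt5-/- liver 2 (0.0967) or 3 (0.108) or Sirt5+/+ liver 1 (0.0798) or 2 (0.121), and without both livers richest in mitochondrial reads the log2 FC was 2.93.

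Egr1 (ENSMUSG00000038418, chromosome 18, 34859823 to 34864984, plus strand) encodes a zinc finger factor induced through SRF and the ELK factors. It had 60.5, 166 and 173 CPM in Sirt5-/- livers and 28.6, 35.8 and 38.9 CPM in Sirt5+/+ livers. As for Jun and Junb, Sirt5-/- liver 1 was the lowest of its genotype, yet it was above every Sirt5+/+ liver. The means were 133 ± 62.9 and 34.4 ± 5.29 CPM (SD, n = 3 each), 3.86-fold apart (log2 FC 1.95 ± 0.41 SE; edgeR adjusted p = 0.00848).

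Ier3 (ENSMUSG00000003541, chromosome 17, 35821684 to 35822923, plus strand), also called IEX-1, encodes an early response protein that acts on cell survival and on MAP kinase signalling. It had 18.9, 26.3 and 33.5 CPM in Sirt5-/- livers and 2.42, 2.04 and 3.67 CPM in Sirt5+/+ livers. This was the smallest adjusted p among the members, with means of 26.2 ± 7.31 and 2.71 ± 0.854 CPM (SD, n = 3 each). Ier3 was 9.99-fold higher in Sirt5-/- livers (log2 FC 3.32 ± 0.34 SE; edgeR adjusted p = 0.00146).

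Fos, Fosl2, Egr1 and Ier3 passed under all 18 other settings, including each liver left out in turn, with log2 FC of 3.05 to 4.80 for Fos, 1.71 to 2.72 for Fosl2, 1.73 to 2.77 for Egr1 and 3.10 to 4.15 for Ier3. Without Sirt5-/- liver 3 these were the 4 members still called, when 9.53% of all genes were called higher. Without both livers richest in mitochondrial reads 9 members were called, when 25.1% of all genes were. No member changed direction under any setting. Scaling by library totals moved the median of all tested genes to 0.60 and put the members between 1.07 (Jund) and 4.64 (Fos and Fosl1). In the authors' deposited table, adjusted p-values under 0.05 marked 8 members as higher, against 12.3% of its genes with a count, and Jun (0.0643) and Jund (0.333) were not.

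**Figure D2:**
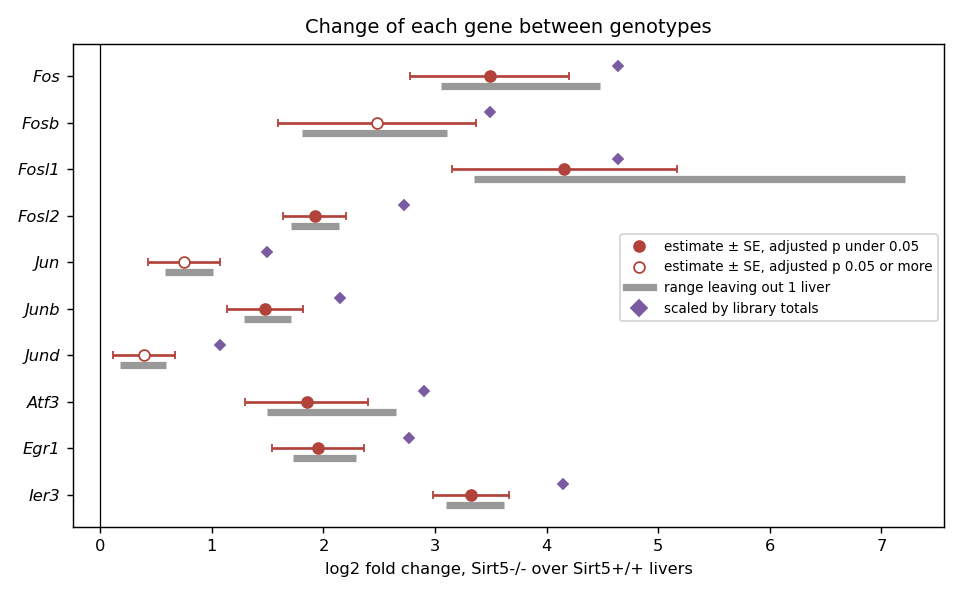
Log2 fold change of each gene, Sirt5-/- over Sirt5+/+, from edgeR, with the standard error as whiskers. Filled points have an adjusted p under 0.05, grey bars span the values with 1 liver left out, and diamonds show scaling by library totals. All values lie above 0, from 0.39 for Jund to 4.16 for Fosl1 in the points.

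Levels of different genes were compared as TPM, a measure per length. A TPM value is scaled to all transcripts of a library, mitochondrial ones included. In Sirt5-/- livers mean TPM ran, high to low, in the order Junb (112 ± 66.1, SD, n = 3), Jund (110 ± 38.8), Fos (64.6 ± 43.5), Egr1 (55.8 ± 37.5), Ier3 (32.8 ± 18.9) and Jun (32.4 ± 19.7), followed by Atf3 (13.0 ± 8.14), Fosl2 (8.08 ± 4.75), Fosb (2.02 ± 1.79) and Fosl1 (0.683 ± 0.544). In Sirt5+/+ livers the order was Jund (62.9 ± 37.7, SD, n = 3), Junb (30.6 ± 20.4), Jun (13.7 ± 8.47), Egr1 (9.25 ± 5.47), Fos (3.31 ± 2.06) and Ier3 (2.17 ± 0.953), followed by Atf3 (1.90 ± 0.792), Fosl2 (1.90 ± 1.21), Fosb (0.187 ± 0.197) and Fosl1 (0.020 ± 0.0346). Neighbouring means lay further apart than the larger of their SDs in few cases, Jund above Fos and Fosl2 above Fosb in Sirt5-/- livers, and Egr1 above Fos and Fosl2 above Fosb in Sirt5+/+ livers. Ranks within a liver (1 for the highest TPM) were steadier than the means. Fos ranked 3 in each Sirt5-/- liver, and 7, 5 and 5 in Sirt5+/+ livers 1 to 3. Jun ranked 6, 5 and 6 in Sirt5-/- livers and 3 in each Sirt5+/+ liver. Junb exceeded Jund in 2 of 3 Sirt5-/- livers, whereas Jund exceeded Junb in 3 of 3 Sirt5+/+ livers. Ier3 and Jun kept their order in 2 of 3 Sirt5-/- livers, and Ier3 and Atf3 in 1 of 3 Sirt5+/+ livers.

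Shares within a family compare genes inside 1 library and do not depend on how libraries are scaled. Fos took 80.9, 87.8 and 85.1% of the summed FOS family TPM in Sirt5-/- livers and 33.0, 73.2 and 77.7% in Sirt5+/+ livers. Fosl2 took 15.4, 9.78 and 10.6% in Sirt5-/- livers and 58.0, 26.3 and 19% in Sirt5+/+ livers. Fos made up most of the pool in every liver except Sirt5+/+ liver 1, and neither share overlapped between genotypes. The differences were 23.3 and -22.5 percentage points, each with an exact two-sided permutation p of 0.1 (adjusted p = 0.2 over 8 measures), and 0.1 is the smallest p that 3 against 3 allows. They rested in part on Sirt5+/+ liver 1, without which they were 9.15 and -10.7 points. Fosb and Fosl1 took small shares that overlapped between genotypes.

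In the JUN family, Junb took 33.4, 44.6 and 46.8% of the summed TPM in Sirt5-/- livers and 26.7, 32.4 and 21.2% in Sirt5+/+ livers. Jund took 57.9, 41.6 and 39.9% in Sirt5-/- livers and 62.9, 52.1 and 65.9% in Sirt5+/+ livers. The Junb share did not overlap between genotypes and the Jund share did. The Junb difference was 14.8 points (exact permutation p = 0.1, adjusted p = 0.2) and the Jund difference -13.8 points (exact permutation p = 0.2, adjusted p = 0.32). The Jun share, 8.66, 13.8 and 13.2% in Sirt5-/- livers and 10.4, 15.5 and 12.9% in Sirt5+/+ livers, overlapped (exact permutation p = 0.7).

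The balance of the families was compared within each liver. Summed FOS family TPM was 20.9, 85.3 and 120 in Sirt5-/- livers and 5.22, 7.71 and 3.32 in Sirt5+/+ livers, while the JUN sum was 117, 287 and 359 in Sirt5-/- livers and 153, 135 and 33.6 in Sirt5+/+ livers. The FOS sums were apart and the JUN sums were not, since Sirt5-/- liver 1 lay below Sirt5+/+ livers 1 and 2. The log2 ratio of FOS to JUN was -2.48, -1.75 and -1.58 in Sirt5-/- livers and -4.88, -4.13 and -3.34 in Sirt5+/+ livers. FOS mRNA was lower than JUN mRNA in all 6 livers, by less in Sirt5-/-. The difference of 2.18 had an exact two-sided permutation p of 0.1 (adjusted p = 0.2), the smallest p possible being 0.1, and it was 1.79 to 2.56 with 1 liver left out. Counts were also set against Jund counts in the same library, a comparison chosen after the data were seen and given without a test. The log2 ratio of Fos to Jund was -1.66, -0.33 and -0.14 in Sirt5-/- livers and -5.73, -3.66 and -2.72 in Sirt5+/+ livers. That of Jun to Jund was -1.70, -0.57 and -0.57 in Sirt5-/- livers and -1.56, -0.71 and -1.33 in Sirt5+/+ livers, which overlap. The ratios of Fos, Fosl2 and Ier3 to Jund did not overlap and were higher in Sirt5-/- livers. That of Fosl1 did not overlap either, but Fosl1 had 0 counts in Sirt5+/+ livers 2 and 3 and was tested only through Sirt5-/- livers. Those of Junb, Atf3 and Egr1, which were called higher, overlapped, as did that of Fosb. The share of all genes whose ratio to Jund did not overlap was not computed, so these ratios are descriptions only.

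**Figure D3:**
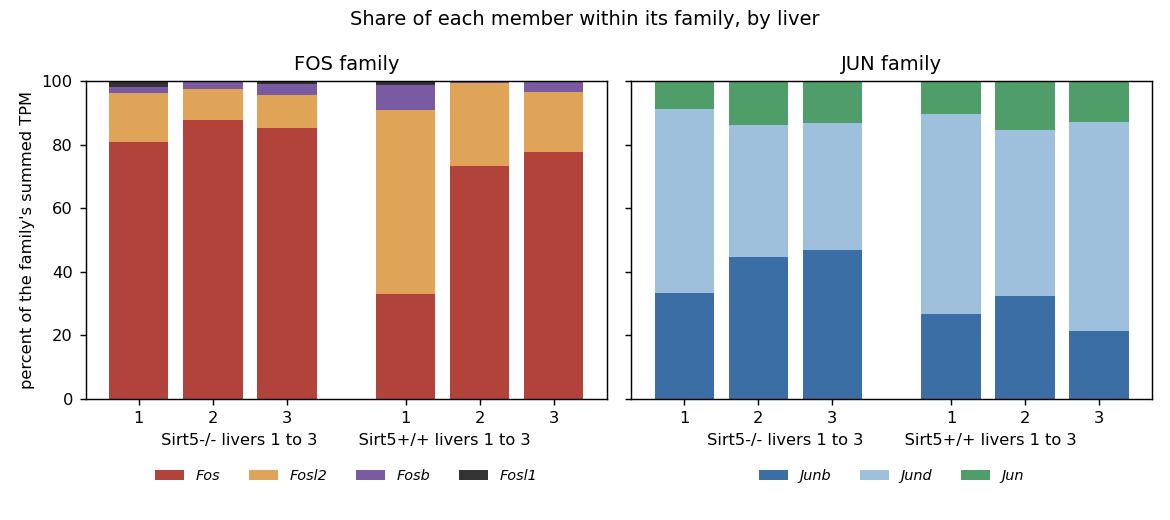
Stacked bars give each gene's percent of the summed TPM of its family in each liver, FOS family on the left and JUN family on the right, with Sirt5-/- livers before Sirt5+/+ livers. Fos filled 80.9 to 87.8% of the FOS bars in Sirt5-/- livers and 33.0 to 77.7% in Sirt5+/+ livers, and Junb 33.4 to 46.8% of the JUN bars in Sirt5-/- livers and 21.2 to 32.4% in Sirt5+/+ livers.

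Early mRNAs are often short-lived because of AU-rich elements in the 3′ UTR. The nonamer TTATTTATT was found in the 3′ UTR of 2 members, Fos and Fosl2, and in 7.08% of 13200 tested genes with a 3′ UTR. Each is shown with 10 bases on either side, the nonamer in capitals (GRCm38).
Fos (chr12:85477103-85477131, plus strand): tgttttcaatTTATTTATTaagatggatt
Fosl2 (chr5:32156871-32156899, plus strand): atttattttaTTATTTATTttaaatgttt
At least 3 copies of ATTTA were present in 5 members (Fos, Fosl2, Jun, Atf3 and Ier3), against 34% of tested genes. Of these 5, Jun alone did not pass the genotype test, and Junb and Egr1 passed it with 2 copies each. These counts were not adjusted for 3′ UTR length, which ran from 485 (Junb) to 4653 bases (Fosl2) in the members, against a median of 962 over tested genes. mRNA decay was not measured in these livers.

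Markers of several cell types moved with the same comparison, in which 17.4% of all genes tested were called higher and 17.1% lower. Macrophage markers were higher in Sirt5-/- livers for 8 of 10 genes and lower for 1 (Clec4f, a Kupffer cell marker), with a summed level of 1980, 3190 and 3980 CPM in Sirt5-/- livers and 591, 537 and 452 CPM in Sirt5+/+ livers. Within the Sirt5-/- livers this sum was lowest in liver 1, the liver in which Fos, Fosb, Fosl2, Jun, Junb, Atf3, Egr1 and Ier3 were also lowest and which had the largest share of mitochondrial reads of its genotype. Hepatocyte markers were lower for 8 of 10 genes, with summed levels of 20600 to 39400 CPM in Sirt5-/- and 89700 to 116000 CPM in Sirt5+/+ livers. Stellate and fibroblast markers were higher for 4 of 8 genes (2130 to 2330 CPM in Sirt5-/- and 403 to 670 CPM in Sirt5+/+). T and NK cell markers were higher for 6 of 7 (20.3 to 23.9 CPM in Sirt5-/- and 3.43 to 4.93 CPM in Sirt5+/+) and bile duct markers for 2 of 6 (739 to 818 CPM in Sirt5-/- and 77.5 to 386 CPM in Sirt5+/+). B cell markers were higher for 1 of 4 (8.61 to 10.2 CPM in Sirt5-/- and 3.93 to 5.0 CPM in Sirt5+/+) and neutrophil markers for 1 of the 2 that could be tested of 8 (8.57 to 13.3 CPM in Sirt5-/- and 3.46 to 6.03 CPM in Sirt5+/+). Endothelial markers were lower for 3 of 7 (116 to 126 CPM in Sirt5-/- and 117 to 198 CPM in Sirt5+/+). None of these markers was at 0 in every liver. Some T and NK cell markers were tested only through Sirt5-/- livers, such as Klrb1c with 1, 3 and 3 counts in Sirt5+/+ livers. In bulk liver, fewer cells of a type and less RNA per cell cannot be told apart, and the part of these cell types and of the mitochondrial share in the member results was not tested.

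The other AP-1 partner factors (BATF, MAF, ATF and JDP proteins, which pair with FOS or JUN or compete with them) were measured for 11 genes. Of these, 6 rose, 1 fell and 4 did not pass (Maff, Mafg, Atf2 and Atf7), with a median log2 FC of 0.98 against -0.08 over all genes, of which 17.4% were called higher and 17.1% lower. The count of falls ran from 0 to 2 over the other settings, being 2 without Sirt5+/+ liver 3 and 0 without any 1 of the other livers. The BATF genes, best known in lymphocytes and dendritic cells, had the smallest p-values. Batf3 had 4.90, 7.25 and 7.59 CPM in Sirt5-/- livers and 0.569, 0.571 and 0.786 CPM in Sirt5+/+ livers (log2 FC 3.40 ± 0.37 SE; edgeR adjusted p = 0.00156). Batf rose by 3.01 ± 0.39 (adjusted p = 0.00195) and Batf2 by 2.50 ± 0.42 (0.00370). With 13, 12 and 3 counts in Sirt5+/+ livers, Batf2 needed Sirt5-/- livers to pass the filter on low counts. T, NK and macrophage marker sums, given above, were higher in the same livers, and their part in the BATF values was not tested.

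The factors that switch the early genes on were measured as mRNA. Of 10 SRF, ELK, MRTF and CREB genes, 1 rose, 0 fell and 9 did not pass, with a median of -0.02, against 17.4% higher, 17.1% lower and a median of -0.08 over all genes. The count of rises was 0 or 2 in 16 of the 18 other settings. Creb1 had 19, 18.4 and 17.8 CPM in Sirt5-/- livers and 6.31, 11.7 and 9.96 CPM in Sirt5+/+ livers (log2 FC 0.98 ± 0.27 SE; edgeR adjusted p = 0.0244), a call lost with library totals, with the replicate number as a block, and without any 1 of the Sirt5-/- livers. Elk3 (log2 FC 1.06 ± 0.37 SE; edgeR adjusted p = 0.0542) did not pass, but passed in 10 of the 18 other settings, among them DESeq2 (0.0225), limma-voom (0.0421) and without Sirt5+/+ liver 3 (0.0136). Mrtfb (-0.34 ± 0.23, adjusted p = 0.275) did not pass. Their activity is set by phosphorylation and location, which mRNA does not show.

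Of 19 MAP kinase genes upstream of AP-1, 3 rose, 5 fell and 11 did not pass, with a median of -0.55, again against 17.4% higher and 17.1% lower over all genes. These shares of calls were not tested against the background. Rps6ka1, for the ERK target kinase RSK1, rose by 1.35 ± 0.27 (edgeR adjusted p = 0.00633), and Map3k1, for the kinase MEKK1, by 1.86 ± 0.40 (0.00863). Map2k7, for an activator of JUN kinases, fell by 0.90 ± 0.20 (SE; edgeR adjusted p = 0.0107). Map3k8 also rose, and Map2k2, Map3k5 and Mapk9 were among those that fell. The Map2k7 value is uncertain, since 33.8% of its 31-base words also belong to the overlapping gene Gm49320 and its adjusted p was 0.862 with library totals. The count of falls ran from 0 to 8 over the other settings, and was 0 with library totals and without Sirt5-/- liver 2 or 3.

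Feedback inhibitors of MAP kinases, themselves induced by the pathway, were mostly higher in Sirt5-/- livers. Of 15 DUSP, SPRY and SPRED genes, 10 rose, 0 fell and 5 did not pass (Spry4, Dusp4, Dusp7, Dusp8 and Dusp16), with a median of 1.37. Over all genes tested, 17.4% were called higher and 17.1% lower, with a median of -0.08. Spry1, which restrains receptor signalling to ERK, had 18.4, 24.5 and 30.0 CPM in Sirt5-/- livers and 6.17, 5.25 and 5.50 CPM in Sirt5+/+ livers (log2 FC 2.11 ± 0.26 SE; edgeR adjusted p = 0.00182). Dusp5, a nuclear ERK phosphatase, rose by 3.07 ± 0.39 (adjusted p = 0.00188) and Dusp14 by 2.75 ± 0.38 (0.00215).

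Of 30 other immediate early genes, 28 could be tested, and 16 rose, 0 fell and 12 did not pass, with a median of 1.35. The background was again 17.4% higher, 17.1% lower and a median of -0.08 over all genes. Ier5, a regulator of the heat shock response, had 21.6, 26.1 and 30.4 CPM in Sirt5-/- livers and 6.50, 6.00 and 6.16 CPM in Sirt5+/+ livers (log2 FC 2.07 ± 0.23 SE; edgeR adjusted p = 0.00162). The nuclear receptor gene Nr4a1 rose by 2.83 ± 0.35 (adjusted p = 0.00185) and Myc by 1.93 ± 0.25 (0.00188). Without Sirt5-/- liver 3 the count of rises was 9. In this list, among the feedback inhibitors and among the SRF and CREB genes, 0 genes were lower at an unadjusted p under 0.05 in edgeR, and 0 were called lower by DESeq2 or limma-voom. Without Sirt5+/+ liver 3 edgeR called 2 feedback inhibitors lower, and without both livers richest in mitochondrial reads 1. Arc and Egr4 were too low to test, and Egr4 was at 0 counts in all livers.

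Of 24 genes described as AP-1 targets in other systems, 20 could be tested. Over all genes, 17.4% were called higher and 17.1% lower, with a median of -0.08. Of the 20 targets, 16 rose, 1 fell (Nqo1, an antioxidant enzyme gene) and 3 did not pass (Spp1, Mmp3 and Mmp12), with a median of 2.52. The count of falls was 0 with library totals, upper-quartile factors, no filter or the replicate block, and without Sirt5-/- liver 2 or 3 or Sirt5+/+ liver 1, and it was 2 without Sirt5+/+ liver 3. Timp1, an inhibitor of matrix proteases, had 22.8, 20.8 and 24.3 CPM in Sirt5-/- livers and 2.37, 3.00 and 3.54 CPM in Sirt5+/+ livers (log2 FC 2.95 ± 0.25 SE; edgeR adjusted p = 0.00146). The cyclin D1 gene Ccnd1 rose by 2.45 ± 0.25 (adjusted p = 0.00146) and Plaur, for the urokinase receptor, by 3.09 ± 0.35 (0.00167). Mmp9, Mmp10, Il6 and Areg were too low to test. Among the rises, Tnf had 2, 3 and 1 counts and Lif 4, 6 and 7 counts in Sirt5+/+ livers. Like Fosl1, these genes could hardly have been tested without being higher in Sirt5-/- livers. Several of the listed targets are also made by macrophages or matrix cells, whose marker sums above were higher in the same livers. Their part in these values was not tested, and AP-1 binding was not measured.

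**Figure D4:**
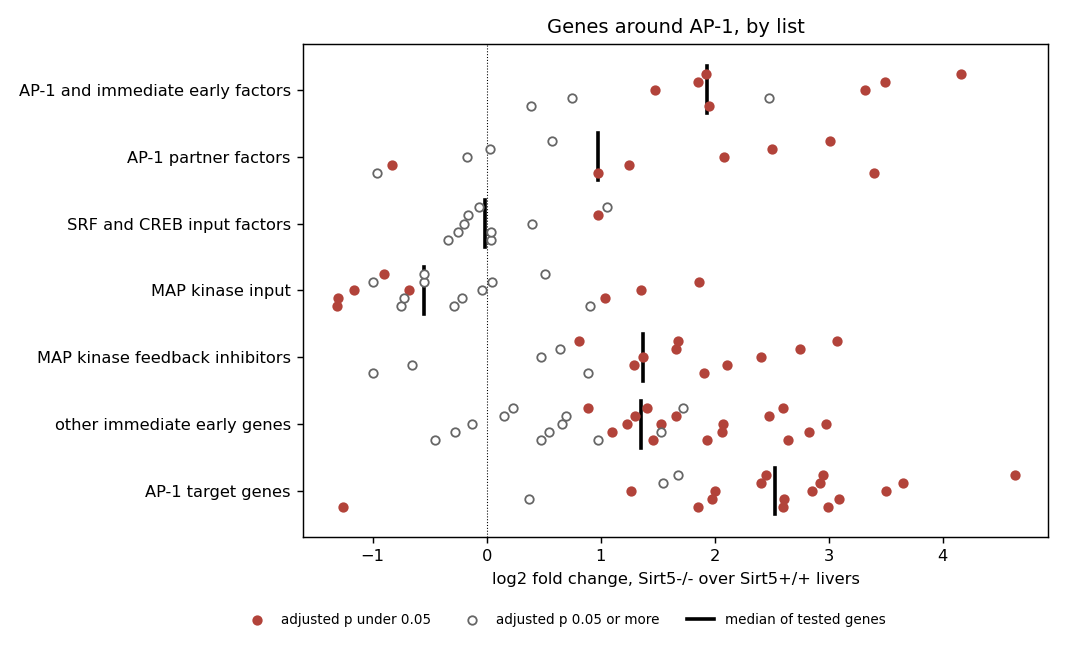
Each point is a tested gene, placed by its log2 fold change, Sirt5-/- over Sirt5+/+, with 1 row for the 10 members and 1 for each list around them; vertical offsets within a row carry no value. Filled points have an adjusted p under 0.05 and black bars are medians, which run from -0.55 for MAP kinase genes to 2.52 for AP-1 targets.

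The genes most like a member were looked for by Pearson r of log2 CPM over the 6 libraries, among genes averaging 5 CPM or more (9190 for Fos and Jun, 9191 for Fosl1). The r values carry no test, and the 6 points share library and genotype. Fos was closest to Cbl (r = 0.9999), Rgs1 (0.9992) and Hacd4 (0.9985), and 518 genes were over 0.95. Fosl1 was closest to Cystm1 (0.9976), Abl1 (0.9972) and Spns2 (0.9963), with 118 genes over 0.95. Fosl1 itself reached at most 1.05 CPM and had 2, 0 and 0 counts in Sirt5+/+ livers. Its log2 CPM there was set largely by the prior count, so its r values say little about shared expression. Jun, whose Sirt5-/- liver 1 sat with the Sirt5+/+ livers, had 13 such genes, led by Wipf2 (0.9853), Pag1 (0.9852) and Meaf6 (0.9849).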

How the data were processed

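Bulk liver RNA was compared between 3 Sirt5-/- and 3 Sirt5+/+ livers. One deposited table held expected counts (estimated reads per gene, in part not whole), TPM, and the log2 fold changes and p-values of the authors' own comparison. HISAT2 2.1.0, RSEM 1.3.1 and DESeq2 1.24.0 are named per the submitters' processing notes, with role, options, strand and build not given in the sources used here. All 55536 gene IDs and names match GENCODE M21, so coordinates are on GRCm38. The deposited TPM values served for ranks and shares between genes, and the authors' log2 fold changes and adjusted p-values only where named.

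Expected counts as deposited were rounded to whole numbers and filtered with filterByExpr (at least 10 counts and a total of 15), which left 14799 genes. TMM factors ran from 0.396 to 1.68. Genotype was the only term in a two-sided quasi-likelihood F test (edgeR 4.0.16, R 4.3.3), with Benjamini-Hochberg adjustment over all genes tested and a threshold of 0.05. The common biological coefficient of variation was 0.373. A level of 3 counts was 0.0827 to 0.393 CPM after scaling, below which a level cannot be told from none. Shares and the FOS to JUN ratio were tested with exact two-sided permutation tests (scipy 1.17.1), adjusted over 8 measures. The interval for Fosl1 is an exact Clopper-Pearson interval and covers counting error only. Scripts were tested on simulated data.

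The members and lists were chosen with earlier results of these data known, so their counts are descriptions. Some list and marker genes, such as Tnf, Lif, Batf2, Egr3 and Klrb1c, passed the filter only with the help of Sirt5-/- livers. Such genes favour a call of higher, and the counts of rises include them. Named genes were the members, Sirt5, the 3 genes of smallest p in each list around AP-1, and the 3 genes most like Fos, Jun and Fosl1. Other list genes were named after their values were seen. Among the list genes counted, 2 are not reported here by name. A list of 12 SRF and CREB names held 2 older aliases that are not names in the table. At most 0.0622% of the 31-base words of any member also occur in another gene.

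Each alternative changed 1 choice, but DESeq2 brings its own scaling and gene filter, and leaving out a library repeats the filter. The scaling was changed to DESeq2 size factors, upper-quartile factors or plain library totals. The filter was dropped, or set to a mean of 50 counts with 1 CPM in 3 libraries. The test was DESeq2 1.42.0, limma-voom (limma 3.58.1), or edgeR with a replicate block or with the mitochondrial share as a covariate. Each library was left out in turn, as were the library of each genotype richest in mitochondrial reads and the mitochondrially encoded genes. Shares were recomputed from expected counts and with a pseudocount of 0.1 TPM. A threshold of 0.01, and shares without both mitochondria-rich libraries, were added after the data were seen.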

Additional observations from a re-analysis of the deposited data

How the results depend on the processing

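Of 899 values recomputed, 775 kept their direction and side of the threshold (or, for counts, stayed within 1.5 times), 22 lost the threshold, 21 gained it, 75 moved and 6 reversed; the cause was not tested. The 7 members called higher became 4 to 8 with 1 liver left out (4 without Sirt5-/- liver 3) and 4 at a threshold of 0.01. All genes called higher (2575) became 1441 to 3991 with 1 liver left out (1535 without Sirt5-/- liver 2, 1441 without Sirt5-/- liver 3, 3991 without Sirt5+/+ liver 3), 3904 without both livers richest in mitochondrial reads and 1415 at 0.01. All genes called lower (2525) became 1665 with the replicate block, 325 with library totals, 1090 to 3656 with 1 liver left out and 1181 at 0.01. Over the lists around AP-1, 52 genes were higher (37 to 62) and 7 lower: 3 with the replicate block, 0 with library totals, 3 with upper-quartile factors, 4 with no filter, 0 to 14 with 1 liver left out, 13 without both mitochondria-rich livers and 0 at 0.01. With 1 liver left out the Jun share difference (-1.03 points) ran from -2.31 to 0.584; it was 0.584 without Sirt5-/- liver 1, 0.257 without Sirt5+/+ liver 2 and 0.578 without both mitochondria-rich livers. The Fosb difference (-1.54) ran from -3.23 to 0.442, being 0.442 without Sirt5+/+ liver 1, the Fosl1 difference (0.765) was -0.898 with a pseudocount of 0.1 TPM, and Mrtfb (-0.34) was 0.22 with library totals. Fosb passed with library totals, no filter, DESeq2, limma-voom, the mitochondrial covariate, without Sirt5+/+ liver 3 or both mitochondria-rich livers. Jun passed with upper-quartile factors (adjusted p = 0.0490) and the mitochondrial covariate (0.0469). Fosl1 was removed by the stricter filter.

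Deviations of livers of the same number had correlations of -0.19, 0.11 and -0.20. Those of livers of different numbers ran from -0.21 to 0.27. With 3 livers a genotype these values cannot show whether the numbers pair the livers. With the replicate block 1978 genes were higher, no member's call changed, and the FOS to JUN difference was 2.18 (exact permutation p = 0.25, the smallest possible for 3 pairs).

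Limits are set by 3 livers a genotype, by a wide range of mitochondrial reads, and, for Fosl1 and Fosb, by few counts.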

Other observations

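Among the other immediate early genes 2 patterns across the Sirt5-/- livers stood out, both chosen after their values were seen and given without a test. Some had, like 8 of the 10 members (not Fosl1 and Jund), their lowest Sirt5-/- level in liver 1. The antiproliferative gene Btg2 had 26.1, 73.8 and 89.6 CPM in Sirt5-/- livers and 10.7, 10.3 and 10.4 CPM in Sirt5+/+ livers. Egr2, a zinc finger relative of Egr1, had 2.1, 10.3 and 13.4 CPM in Sirt5-/- livers and 0.854, 0.821 and 1.83 CPM in Sirt5+/+ livers. The cytokine gene Il1b, from the AP-1 target list, had 6.53, 26.1 and 39.8 CPM in Sirt5-/- livers and 0.759, 1.29 and 0.786 CPM in Sirt5+/+ livers. In others liver 1 was not clearly the lowest. Myc had 32.5, 32.9 and 38.2 CPM in Sirt5-/- livers, with livers 1 and 2 almost level, and 9.92, 6.89 and 10.5 CPM in Sirt5+/+ livers. The stress gene Gadd45g had 149, 101 and 83.4 CPM in Sirt5-/- livers, highest in liver 1, and 32.3, 20.5 and 63.2 CPM in Sirt5+/+ livers.

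Of the early genes whose products restrain the response, some passed the test and some did not. Zfp36, whose protein degrades mRNAs with AU-rich elements, had 101, 176 and 188 CPM in Sirt5-/- livers and 157, 141 and 119 CPM in Sirt5+/+ livers (log2 FC 0.15 ± 0.32 SE; edgeR adjusted p = 0.741). Nfkbia, for an inhibitor of NF-κB, had 35.9, 39.6 and 43.7 CPM in Sirt5-/- livers and 49.0, 44.3 and 51.2 CPM in Sirt5+/+ livers (log2 FC -0.28 ± 0.22 SE; edgeR adjusted p = 0.358). Tnfaip3, for another inhibitor of NF-κB signalling, rose by 1.41 ± 0.39 on the log2 scale (SE; edgeR adjusted p = 0.0243). Dusp1, for a phosphatase of p38 and JNK, rose to 89.2, 105 and 121 CPM in Sirt5-/- livers, against 44.1, 43.3 and 41.5 CPM in Sirt5+/+ livers (log2 FC 1.29 ± 0.24 SE; edgeR adjusted p = 0.00522). These genes were also picked after their values were seen.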
